A study of Mus musculus with 24 samples.

Results

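Acetylation of histone H3 at lysine 27 (H3K27ac) was compared between N1E115 cells kept at 4% oxygen and at 20% oxygen. The comparison rests on 4 of the 24 samples of the series, which were all of its H3K27ac samples, with 2 libraries at each oxygen level. N1E115 is an established mouse neuroblastoma line, and the cells were labelled as positive for NOS1, the neuronal nitric oxide synthase. Cells were held for 3 days at either oxygen level, and the marked chromatin was then pulled down with an antibody and sequenced (ChIP-seq). Both oxygen levels shared the line, the culture time and the NOS1 status, and no other treatment was given in the labels. The first library of each level is called set 1 here and the second set 2, and the labels of set 2 added 5% CO2. The labels give brain as the tissue, but a single cultured line stands in for it. Separate cultures are not named for the 2 libraries of a level, and p-values then measure only the spread between these libraries, which may be technical.

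H3K27ac is placed by acetyltransferases such as p300 and CBP and removed by histone deacetylases, and it marks promoters and enhancers that are in use. When oxygen is scarce, prolyl hydroxylases of the EGLN family stop marking the HIF alpha subunits for destruction by the VHL ubiquitin ligase. HIF then pairs with ARNT, binds short DNA elements with the core ACGTG or GCGTG, and switches on genes for glucose use, pH control, blood vessel growth and its own feedback.

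Peaks had been called separately in each library, and the number of mapped reads, and hence the depth, is unknown. The lists held 69131 and 85201 peaks at 20% oxygen and 60786 and 94286 at 4%, in sets 1 and 2, and covered 59.6 and 65.4 Mb against 56.9 and 75.2 Mb. Covered length averaged 62.5 ± 4.07 Mb in the 20% libraries and 66.0 ± 12.9 Mb in the 4% libraries (SD, n = 2), and the groups overlapped (two-sided exact permutation p = 1, where the smallest p that 2 against 2 libraries allow is 0.333). Sequencing reads of set 2 came from 1 flow cell, whereas in set 1 the 20% and the 4% library came from different flow cells, per the file headers. Oxygen and flow cell can therefore not be told apart in set 1, and the values of set 2 are those within 1 flow cell.

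Most of 17 marker genes of noradrenergic neuroblastoma carried H3K27ac at both oxygen levels. The window of 2000 bp around the start was covered to 100% in all 4 libraries at Th and Dbh, which encode enzymes of catecholamine synthesis, and at Chgb, a protein of secretory granules. Coverage at the transcription factor genes Phox2a, Hand2, Gata2, Gata3 and Isl1 lay between 87.5% and 100% in every library. Exceptions were Ddc, another enzyme of that synthesis, covered to 26.55% in 1 library at 20% oxygen and 0% in the others, and Nefl, a neurofilament gene, covered to at most 4.6%. Most marker genes of other cell types had no H3K27ac at the start, with 11 of 12 immune, 11 of 12 endothelial, 10 of 12 liver and muscle and 9 of 14 glial markers at 0% in all 4 libraries, Ptprc, Cdh5, Alb and Sox10 among them. The shares of the immune list summed to 21.1 and 20.7 points at 20% oxygen and 26.7 and 30.9 at 4%, and those of the endothelial list to 0, 0, 0 and 2.88. The glial and Schwann list summed to 138 and 182 against 155 and 209 points, with Pmp22 at 100% and 100% against 100% and 100%, and the liver and muscle list to 16.9 and 121 against 65.2 and 82 points, most of it at Myog (16.9% and 94.9% against 64.6% and 69.7%). Whether these had a part in any difference was not tested.

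At gene starts, more windows were higher than lower at 4% oxygen, and the higher ones were led by Selenbp1, Adm and other genes that had little or no H3K27ac at 20%. For each of 21887 protein-coding genes the share of the start window under H3K27ac peaks was taken, and a start was counted as higher when both 4% libraries exceeded both 20% libraries by at least 10 percentage points. In all, 659 starts were higher (3.01% of all starts, and 6.05% of the 10897 starts with a mean share of at least 5%) and 256 were lower (1.17% and 2.35%). At the higher starts the share averaged 36.04% and 37.1% in the 20% libraries and 60.3% and 62.9% in the 4% libraries, and that of the lower starts 52.7% and 51.1% against 27.6% and 30.5%. At 59 higher starts both 20% libraries were at 0%, and at 42 lower starts both 4% libraries were.

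No single start passed the test with 2 libraries a group. Limma with a trend over 10762 starts called 0 starts at a Benjamini-Hochberg adjusted p under 0.05, with a smallest adjusted p of 0.576, while 626 starts (5.82%) were higher and 224 (2.08%) lower at an unadjusted p under 0.05. The count of 0 does not show that starts were alike. With the 4% library of set 2 left out, 1086 starts were higher and 1234 lower, so the excess of higher starts rests on that library. The median difference over starts with a mean share of at least 5% was 1.78 points, with 0 in set 1 and 3.4 in set 2.

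Selenbp1 encodes a selenium-binding protein that oxidises methanethiol, and its start had the widest gap between the lower 4% and the higher 20% library. H3K27ac covered 11.6% and 14.8% at 20% oxygen and 83.9% and 87.9% at 4%, in sets 1 and 2. Both 4% libraries lay far above both 20% libraries, with a difference of 72.7 points (limma SE 5.82); the limma adjusted p was 0.576, and the adjusted p of all other named starts lay between 0.576 and 0.656. The 20% libraries had 1 short peak each before the start, from -460 to -230 bp in set 1 and from -534 to -239 bp in set 2. At 4% oxygen the peaks spread over both sides of the start, from -1243 to 791 bp in set 1 and from -1534 to 902 bp in set 2, apart from a gap just before it.

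Adm encodes adrenomedullin, a secreted peptide that widens vessels. Its start window was covered to 0% and 0% at 20% oxygen and 90.4% and 61.5% at 4%. No peak of the 20% libraries reached the window, both 4% libraries were high, and the difference was 75.9 points (limma SE 11.2). In set 1 at 4% oxygen a peak ran from 45 to 4608 bp past the start and another from -1149 to -149 bp, and in set 2 they ran from 34 to 2637 bp and from -374 to -111 bp. Past the window the 20% libraries did have peaks: of the region from 34 to 4608 bp, which runs beyond the end of the gene, they covered 1419 and 887 bp, and the 4% libraries 4564 and 4107 bp. Upstream, a region from -14620 to -12056 bp was acetylated in all 4 libraries, with lengths of 2394 and 2108 bp against 2389 and 2472 bp, which overlap.

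The promoter letters of 6 of the named starts, a selection made after their values were seen, are shown because the HIF core can be looked for in them. Each line holds 250 bases before the start and 5 from it, 5′ to 3′ along the gene, from RefSeq on GRCm38.p6. Capitals mark ACGTG or GCGTG, the 2 spellings of the core, or CACGT or CACGC, their reverse strand. The first 4 genes were higher at 4% oxygen and the last 2 lower. They lie at chr7:110627407-110627661 on the plus strand (Adm), chr2:71872974-71873228 plus (Pdk1), chr3:94932833-94933087 plus (Selenbp1), chr3:51396543-51396797 minus (Mgarp), chr10:62602294-62602548 minus (Ddx21) and chr2:72475969-72476223 plus (Cdca7).
Adm: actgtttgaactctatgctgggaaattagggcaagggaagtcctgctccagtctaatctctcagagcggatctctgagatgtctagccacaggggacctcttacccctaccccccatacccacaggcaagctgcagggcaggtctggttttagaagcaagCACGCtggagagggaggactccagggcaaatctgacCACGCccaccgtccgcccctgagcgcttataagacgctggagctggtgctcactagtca
Pdk1: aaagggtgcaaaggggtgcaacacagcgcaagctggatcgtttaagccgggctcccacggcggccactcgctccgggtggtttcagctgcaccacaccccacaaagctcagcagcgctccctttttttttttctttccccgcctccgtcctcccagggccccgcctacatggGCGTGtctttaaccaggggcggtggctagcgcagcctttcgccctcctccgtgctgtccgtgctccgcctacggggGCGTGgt
Selenbp1: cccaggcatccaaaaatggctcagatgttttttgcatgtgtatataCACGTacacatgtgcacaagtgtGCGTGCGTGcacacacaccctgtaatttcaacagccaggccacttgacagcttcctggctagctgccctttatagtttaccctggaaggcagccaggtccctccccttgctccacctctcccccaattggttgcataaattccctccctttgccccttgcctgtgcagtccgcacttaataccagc
Mgarp: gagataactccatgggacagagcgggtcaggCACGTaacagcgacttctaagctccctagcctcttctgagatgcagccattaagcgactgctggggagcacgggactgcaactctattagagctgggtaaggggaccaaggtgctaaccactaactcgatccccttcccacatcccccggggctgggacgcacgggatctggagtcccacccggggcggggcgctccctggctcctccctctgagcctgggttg
Ddx21: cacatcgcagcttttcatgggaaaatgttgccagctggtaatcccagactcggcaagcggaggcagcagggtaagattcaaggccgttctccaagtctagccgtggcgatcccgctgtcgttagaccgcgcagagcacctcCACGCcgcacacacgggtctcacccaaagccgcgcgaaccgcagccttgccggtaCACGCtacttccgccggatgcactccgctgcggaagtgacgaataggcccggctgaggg
Cdca7: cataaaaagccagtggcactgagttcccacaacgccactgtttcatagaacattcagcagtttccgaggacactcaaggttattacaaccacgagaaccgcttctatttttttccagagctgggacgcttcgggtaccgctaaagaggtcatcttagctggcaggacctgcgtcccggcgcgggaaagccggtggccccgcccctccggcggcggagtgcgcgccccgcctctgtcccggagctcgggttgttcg

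The Adm stretch held 2 matches, beginning 90 and 54 bases before the start, and that of Pdk1 held 2, at 78 and 2 bases before it. Selenbp1 had 3, of which 2 overlap in GCGTGCGTG, Mgarp 1, Ddx21 2 and Cdca7 0. Over windows of 300 bases, from 250 before to 50 after the start, at least 1 match stood in 67.9% of 605 higher starts, 67.4% of 239 lower starts, and 66.0% of the 8874 listed starts with a mean share of at least 5%. Of all 17492 windows 49.6% held one. The spelling ACGTG alone, on either strand, stood in 31.4% of higher, 27.2% of lower and 26.2% of the 8874 windows, and in 20.8% of all. It stood in 15 of 31 windows of the hypoxia response list (48.4%) and 14 of 25 of the glycolysis list (56%). With both spellings the lists had 24 (77.4%) and 19 (76%) windows with a match, against 66.0% of the 8874. A match is a description of letters and does not show a bound site.

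The other starts of the first 10 belong to genes of varied roles. Mgarp, which tethers mitochondria for transport in neurons, had 17.3% and 9.3% at 20% oxygen and 67.2% and 70.4% at 4%. Caly, a vesicle protein of neurons, had 0% and 0% at 20% oxygen and 50.9% and 56.8% at 4%. Lin28b, an RNA-binding protein that blocks let-7 maturation, had 0% and 0% at 20% oxygen and 49.2% and 46.6% at 4%. Each of these 3 genes was far higher in both 4% libraries, and Caly and Lin28b had no peak in the window at 20% oxygen; Lin28b was -11.6 points lower when both ends of its gene record were used instead of the start. Hexa, the alpha subunit of lysosomal hexosaminidase, had 24.3% and 0% at 20% oxygen and 69.5% and 71.2% at 4%. Urod, which encodes uroporphyrinogen decarboxylase of heme synthesis and shares its window with the ubiquitin ligase gene Hectd3, had 9.8% and 0% at 20% oxygen and 56.9% and 57.5% at 4%. Cish, a feedback inhibitor of cytokine receptors, had 18.95% and 10.3% at 20% oxygen and 68.95% and 58.2% at 4%. The groups did not overlap at any of the 3. Gm51999, a predicted gene, had 36.9% and 28.8% at 20% oxygen and 80.7% and 83.7% at 4%, and Pdk1 is given with the hypoxia response genes.

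**Figure D1:**
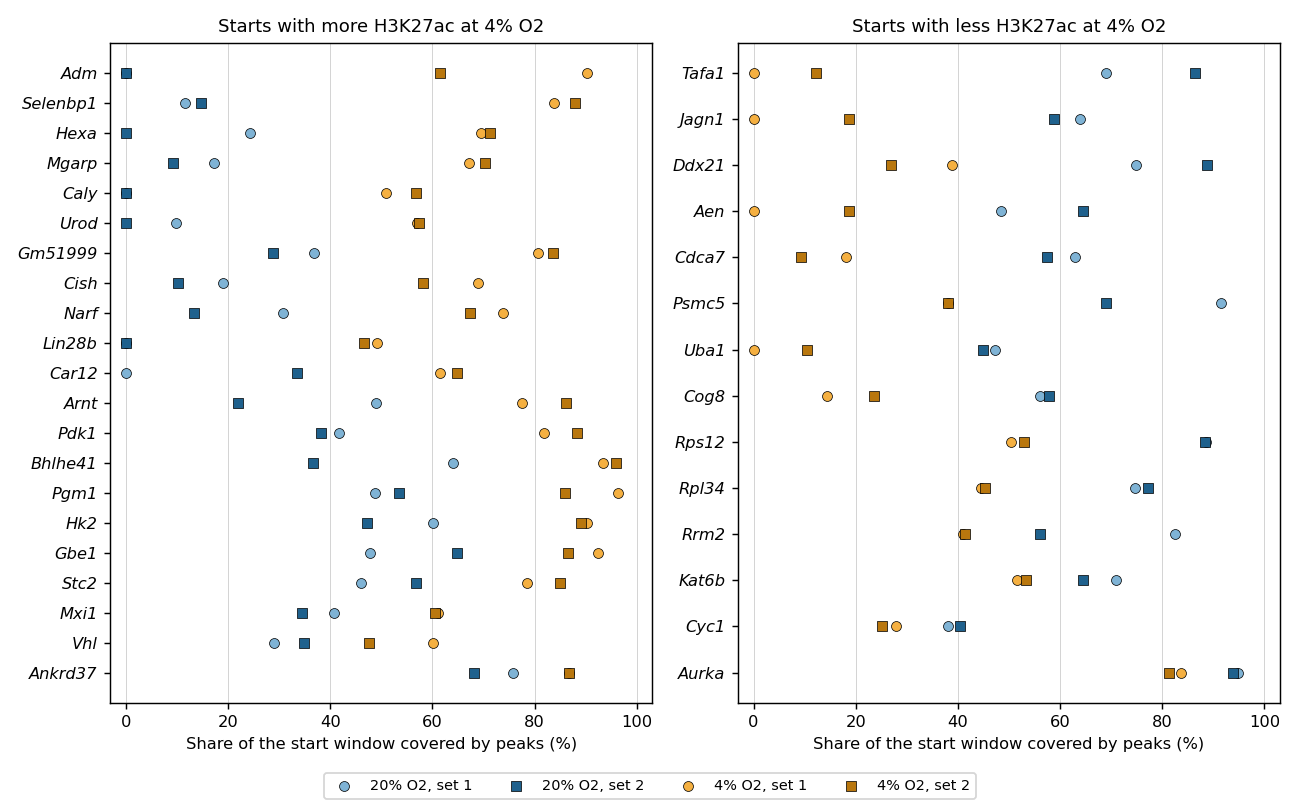
Share of the start window under H3K27ac peaks (%, x axis) in each of the 4 libraries, for named genes that were higher (left) or lower (right) at 4% oxygen; circles are set 1 and squares set 2, blue 20% and orange 4% oxygen. In every row the 2 orange points lie on one side of the 2 blue ones, as the choice of genes requires, and the distance is widest at Selenbp1 on the left and Tafa1 on the right.

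Starts with less H3K27ac at 4% oxygen were led by Tafa1, a secreted chemokine-like protein of neurons. Tafa1 had 69% and 86.4% at 20% oxygen and 0% and 12.2% at 4%, a difference of -71.6 points (limma SE 8.98). At 20% oxygen its peaks ran up to the start and across it, from -2288 to -438 bp and beyond in set 1 and from -2256 to 262 bp in set 2, while at 4% oxygen the window held no peak in set 1 and 1 from -235 to 8 bp in set 2. Over the gene record and 100000 bp on either side, peaks summed to 16751 and 11670 bp in the 20% libraries and to 6970 and 5028 bp in the 4% libraries, and 5 regions there were found in both 20% libraries and neither 4% library. Both 4% libraries thus had the lower sum, and some of the 5 regions lay far from the start, as from 69190 to 70524 bp. Not all regions of the locus differed: from 210994 to 213558 bp there were 2565 and 1349 bp against 1586 and 1302 bp, which overlap.

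Ddx21, a helicase of the nucleolus, had 74.8% and 88.8% at 20% oxygen and 38.9% and 26.95% at 4%. The ribosomal protein gene Rps12 had 88.5% and 88.4% at 20% oxygen and 50.3% and 52.9% at 4%. Another, Rpl34, had 74.8% and 77.2% at 20% oxygen and 44.5% and 45.3% at 4%. In all 3 the 4% libraries were the low ones. Ddx21 had a peak before its start in both 20% libraries and in neither 4% library, while Rps12 and Rpl34 kept peaks on both sides. At Rps12 the downstream peak ran from 13 to 1180 bp and from -12 to 1366 bp at 20% oxygen and from 39 to 340 bp and from 57 to 459 bp at 4%. Cog8, a Golgi tethering subunit, shares its start with Nip7, a factor for ribosome assembly, and had 56.2% and 57.9% at 20% oxygen and 14.3% and 23.6% at 4%. Psmc5, an ATPase of the proteasome, shares its start with the ribosomal RNA processing gene Ftsj3 and had 91.5% and 68.95% at 20% oxygen and 38% and 38.1% at 4%. The 4% libraries were low at both of these paired starts.

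Uba1, which activates ubiquitin, had 47.3% and 44.9% at 20% oxygen and 0% and 10.4% at 4%. Jagn1, a protein of the endoplasmic reticulum, had 63.9% and 58.8% at 20% oxygen and 0% and 18.7% at 4%. Aen, a nuclease induced by p53, had 48.5% and 64.4% at 20% oxygen and 0% and 18.6% at 4%. At all 3 the 4% library of set 1 was at 0% and that of set 2 was below 20%. Cdca7, a zinc finger protein that works with the remodeller HELLS, had 62.9% and 57.4% at 20% oxygen and 18% and 9.3% at 4%, with both 4% libraries low.

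**Figure D2:**
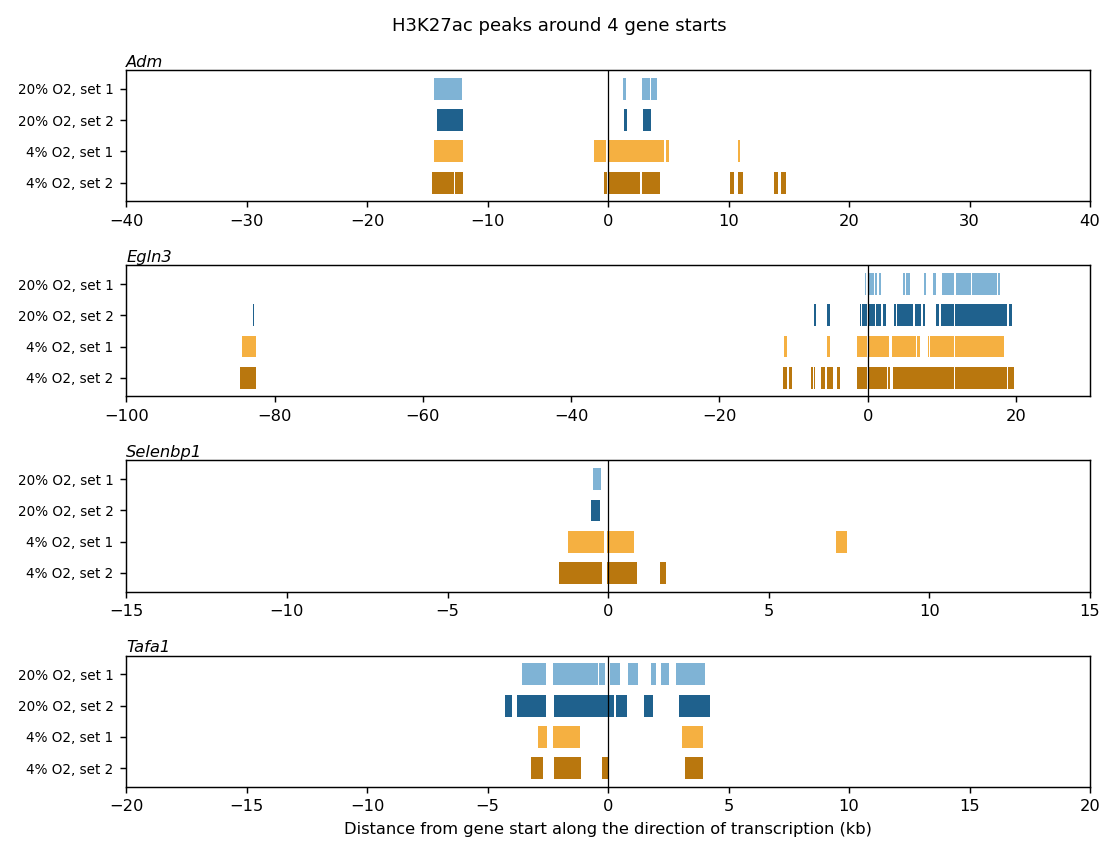
H3K27ac peaks (bars) in the 4 libraries around the starts of Adm, Egln3, Selenbp1 and Tafa1, by distance from the start along transcription (kb, x axis); each row is 1 library. Adm and Selenbp1 show peaks at the start mainly in the 4% rows, Egln3 shows a block far upstream that is wide in both 4% rows, and Tafa1 shows more peaks in the 20% rows.

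Hypoxia response genes had more H3K27ac at their starts at 4% oxygen. Of 40 listed targets and regulators of HIF, 10 were higher by the 10-point rule (25%, against 3.01% of all starts) and 0 lower. A mean share of at least 5% was reached by 32 of the 40, and 6.05% of all such starts were higher. Both sets had the higher share at 4% oxygen for 22 members and the lower one for 2, the sets went opposite ways for 5, and 8 were at 0% in all 4 libraries. The list averaged 40.5% and 39.99% in the 20% libraries and 55.2% and 53.5% in the 4% libraries. The median difference was 7.04 points, with 5.78 in set 1 and 5.68 in set 2, against a median of 0 over all starts. Over starts with a mean share of at least 5% the median was 1.78 points, with 0 in set 1 and 3.4 in set 2. The list was chosen with results of these data known, and limma called 0 of its members, with 10 higher and 0 lower at an unadjusted p under 0.05. Leaving out 1 library at a time loosens the rule, so that counts can only stay or rise. It gave 13 or 14 higher members, while the count over all starts rose from 659 to between 1086 and 2228.

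Among the regulators, Arnt, the partner of the HIF alpha subunits, had 49.1% and 22.1% at 20% oxygen and 77.6% and 86.2% at 4%. Vhl, the ubiquitin ligase subunit that removes HIF alpha, had 29.1% and 34.9% at 20% oxygen and 60.1% and 47.6% at 4%. Both were higher in each 4% library than in either 20% library. Egln3, an oxygen-sensing prolyl hydroxylase, had 50.7% and 87.6% at 20% oxygen and 92.2% and 91% at 4%, which falls short of the rule because the 20% library of set 2 was nearly as high. The starts of Hif1a, 70.5% and 39.1% against 64.8% and 43.9%, and Egln1, 77.2% and 87.2% against 83.9% and 78.6%, overlapped between oxygen levels. Epas1, the gene of HIF-2 alpha, was at 0% in every library.

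Among the targets, Pdk1, which inhibits pyruvate dehydrogenase by phosphorylation, had 41.8% and 38.3% at 20% oxygen and 81.9% and 88.3% at 4%. Its 20% libraries held 1 peak after the start, from 108 to 942 bp and from 98 to 862 bp, and the 4% libraries held a longer one there and a further one before the start, from -855 to -139 bp and from -1039 to -140 bp. Narf, a protein that binds prelamin A, had 30.8% and 13.4% at 20% oxygen and 73.9% and 67.3% at 4%. Bhlhe41, a transcriptional repressor, had 63.95% and 36.7% at 20% oxygen and 93.3% and 95.9% at 4%. At all 3 the lower 4% library stood 29.35 points or more above the higher 20% library.

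Car12, a carbonic anhydrase of the cell surface, had 0% and 33.6% at 20% oxygen and 61.5% and 64.8% at 4%. Stc2, the secreted glycoprotein stanniocalcin, had 45.95% and 56.7% at 20% oxygen and 78.6% and 85.1% at 4%. Mxi1, an antagonist of Myc, had 40.7% and 34.6% at 20% oxygen and 61.1% and 60.6% at 4%. Ankrd37, an ankyrin repeat protein, had 75.7% and 68.2% at 20% oxygen and 86.8% and 86.7% at 4%. These 4 were higher in both 4% libraries, Ankrd37 by the least. Other well-known targets did not meet the rule: Vegfa had 69.95% and 84.4% against 67.6% and 90.4%, Bnip3 92.1% and 76.2% against 95.4% and 89.8%, Ddit4 91.7% and 87.8% against 92.8% and 93.2% and Ero1a 97.2% and 100% against 100% and 100%, at 20% against 4%. Their starts were largely covered at 20% oxygen already. Epo, Car9, Igfbp3, Rora and Vldlr were at 0% in all 4 libraries.

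Genes of glycolysis and glucose uptake were higher by the 10-point rule at 3 of 26 starts (11.5%, against 3.01%, or 6.05% of starts with a mean share of at least 5%, which all 26 had) and lower at 0. Both sets had more coverage at 4% oxygen for 17 members and less for 2. The list averaged 70.2% and 72.04% in the 20% libraries and 81.03% and 81.1% in the 4% libraries. Most of these starts were thus well covered at 20% oxygen, and a share cannot pass 100%. The median difference was 6.19 points, with 6.6 in set 1 and 4.35 in set 2. Over all starts with a mean share of at least 5% it was 1.78 points, with 0 in set 1 and 3.4 in set 2, so set 2 lay near that background. Pgm1, which links glucose 6-phosphate to glycogen, had 48.8% and 53.6% at 20% oxygen and 96.4% and 86.1% at 4%. Hk2, the inducible hexokinase, had 60.1% and 47.3% at 20% oxygen and 90.2% and 89% at 4%, and Gbe1, the glycogen branching enzyme, had 47.8% and 64.8% at 20% oxygen and 92.4% and 86.5% at 4%. Both 4% libraries were high at the 3 starts. The glucose transporter gene Slc2a1 had 38.3% and 72.2% against 87.7% and 82.1%, short of the rule by the 20% library of set 2, and Gapdh (89.4% and 90.7% against 92.6% and 89.2%) and Ldha (96.5% and 93.4% against 100% and 92.6%) were covered nearly in full throughout.

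The difference at these starts extended to at least 2500 bp on either side. Around the 31 hypoxia response starts with a listed position, the mean share of starts under a peak differed by 13.7 points between -2500 and -1000 bp, 16.3 from -1000 to 0, 15.5 from 0 to 1000, 15.8 from 1000 to 2500 and 7.26 from 2500 to 5000 bp. For 25 glycolysis starts the values were 15.9, 14.4, 6.27, 18.6 and 14.7 points. Over the 8874 starts they were 2.70, 4.39, 1.10, 2.88 and 0.875 points. Farther upstream, from -5000 to -2500 bp, the difference was 2.75 points for hypoxia response and 3.80 points for glycolysis starts, and the libraries of the 2 oxygen levels overlapped in the first (7.71% at 20% in set 2, 7.53% at 4% in set 1). They also overlapped in the glycolysis genes from 2500 to 5000 bp, with 22.7% at 20% in set 2 and 22.2% at 4% in set 1. The hypoxia response starts did not overlap from 2500 to 5000 bp, with 14.3% and 16.8% at 20% oxygen and 20.0% and 25.6% at 4%. From 0 to 1000 bp of the glycolysis starts 78.5% and 80.9% were covered at 20% oxygen already. In bulk chromatin, more cells with the mark and more of it per cell cannot be told apart.

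**Figure D3:**
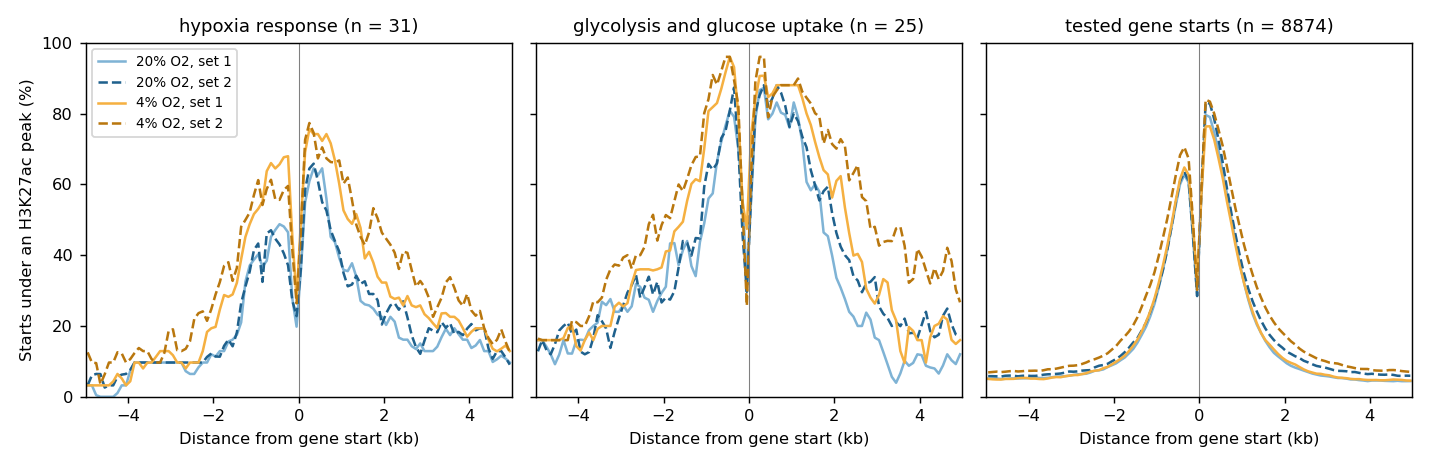
Share of gene starts under an H3K27ac peak (%, y axis) by distance from the start (kb, x axis) for the hypoxia response list, the glycolysis list and all starts with a mean share of at least 5%; blue lines are 20% and orange 4% oxygen, solid set 1 and dashed set 2. Averaged over 1000 to 2500 bp on either side, both orange lines lie above both blue ones in the first 2 panels, while over all starts only the 4% library of set 2 lies above the rest.

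**Figure D4:**
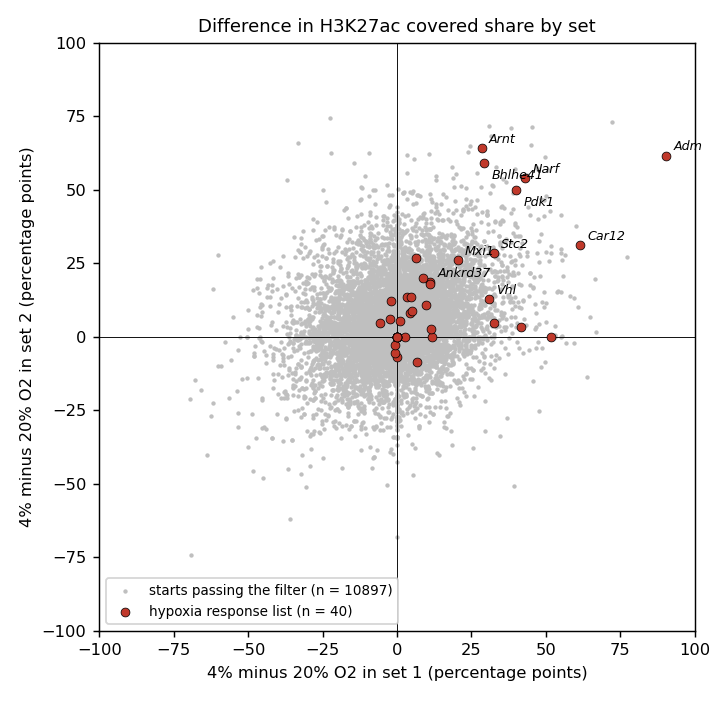
Difference in covered share, 4% minus 20% oxygen (percentage points), in set 1 (x axis) and set 2 (y axis) for 10897 gene starts (grey) and the 40 hypoxia response genes (red), with the 10 higher members named. The grey cloud is broad in all directions, and 22 red points lie in the upper right.

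The 2 sets agreed only in part over all starts. Of the 10897 starts, 3890 (35.7%) were higher in both sets, 2041 (18.7%) lower in both and 4235 (38.9%) of opposite sign. Counting differences of at least 10 points in each set, 1073 were higher in both, 440 lower in both and 674 opposite. Set 1 had 2150 starts higher and 2092 lower by at least 10 points, and set 2, within 1 flow cell, had 3310 higher and 1075 lower.

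Nitric oxide and cGMP genes were higher at 4 of 23 starts (17.4%, against 3.01%, or 6.05% of starts with a mean share of at least 5%, which 16 had) and lower at 0, with a median difference of 0.39 points. Nos1 itself had no peak in the start window in any library, and RefSeq's start need not be the one used in these cells. The nearest region acetylated in all 4 libraries ran from -31903 to -23009 bp, with peaks over 7006 and 8372 bp in the 20% libraries and 7391 and 8488 bp in the 4% libraries, which overlap. Ddah1, which breaks down an inhibitor of nitric oxide synthases, had 28.5% and 31.3% at 20% oxygen and 53.5% and 68.3% at 4%. Gch1, the first enzyme of tetrahydrobiopterin synthesis, a cofactor of those enzymes, had 65.5% and 64.4% at 20% oxygen and 90.6% and 82.4% at 4%. Dynll1, a dynein light chain that binds NOS1, had 55.5% and 55.4% at 20% oxygen and 70.3% and 73.1% at 4%. The 4% libraries were the high ones at these 3 starts. The fourth was Gucy1a1, a subunit of soluble guanylate cyclase, with 81.4% and 83.6% at 20% oxygen and 95.9% and 93.9% at 4%.

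Enzymes that place, remove or read acetylation were higher at 2 of 31 starts and lower at 1 (6.45% and 3.23%). All 31 had a mean share of at least 5%, and among such starts 6.05% were higher and 2.35% lower, so these counts were near the background. Acss2, which makes acetyl-CoA from acetate, had 43.6% and 58.7% at 20% oxygen and 82.3% and 79.9% at 4%. The acetyltransferase gene Kat5 had 55.2% and 44.5% at 20% oxygen and 65.9% and 77.7% at 4%. Kat6b, another of that kind, had 71% and 64.5% at 20% oxygen and 51.5% and 53.3% at 4%. The first 2 were thus high and Kat6b low in both 4% libraries. Ep300 had 91.7% and 91.8% against 94.2% and 91.8%, with overlap. Immediate early genes were higher at 2 of 20 starts (10%, against 3.01% of all starts and 6.05% of those with a mean share of at least 5%, as 18 of the 20 had), the transcription factor genes Egr2, with 39.5% and 53.2% at 20% oxygen and 90.4% and 79.1% at 4%, and Fosb, with 0% and 19.9% at 20% oxygen and 31.2% and 43.1% at 4%. Of 20 genes of the integrated stress response 1 was higher (5%, near the same background), Ppp1r15a, a phosphatase subunit that restores translation, with 72.9% and 75.5% at 20% oxygen and 88.7% and 91.6% at 4%.

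Genes of mitochondrial respiration were higher at 1 and lower at 1 of 22 (4.55% each, against 3.01% and 1.17% of all starts, and 6.05% and 2.35% of those with a mean share of at least 5%), with a median difference of -2.1 points; sets 1 and 2 both gave a higher share for 3 members and a lower one for 6. Cox4i2, the alternative subunit 4 of cytochrome c oxidase, had 7.85% and 8.7% at 20% oxygen and 26.2% and 37.7% at 4%, over both ends of its gene record. Cyc1, cytochrome c1, had 38.025% and 40.4% at 20% oxygen and 27.9% and 25.1% at 4%, also over both ends. Cell cycle genes were lower at 2 of 20 (10%, against 1.17% and 2.35%) and higher at 0: the ribonucleotide reductase gene Rrm2, with 82.5% and 56.2% at 20% oxygen and 41% and 41.3% at 4%, and the kinase gene Aurka, with 94.8% and 93.9% at 20% oxygen and 83.7% and 81.3% at 4%. The cell cycle list as a whole did not lean lower. Its median difference was 0.7 points, with -1.05 in set 1 and 1.825 in set 2, and 7 members were higher and 5 lower in both sets. Noradrenergic identity (28 genes), mesenchymal state (20), neuronal cytoskeleton and synapse (25), housekeeping (20) and the 4 lists of other cell types had 0 starts higher and 0 lower.

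**Figure D5:**
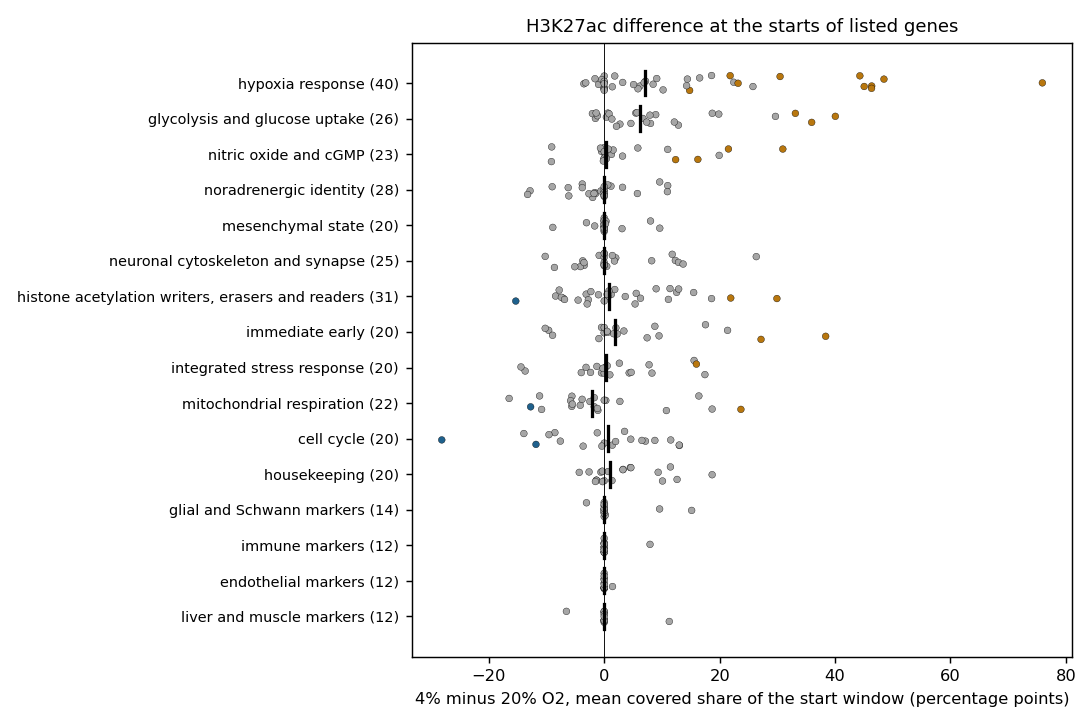
Difference in covered share of the start window, 4% minus 20% oxygen (percentage points, x axis), for each gene of the 16 lists (y axis, number of genes in brackets); orange points were higher and blue points lower by the 10-point rule, and black bars are list medians. The hypoxia and glycolysis medians, 7.04 and 6.19 points, are the ones farthest above 0.

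Peak scores, the authors' own values, gave within-list ranks that moved at some starts and not at others. Ranks are given as the top percent of a library's list that the best peak in the window belongs to. For Selenbp1 the best peak was in the top 70.7% and 86.5% at 20% oxygen and in the top 6.91% and 8.58% at 4%. For Hk2 it was in the top 22.9% and 18.1% against 3.04% and 2.37%, and for Ankrd37 in the top 1.32% and 1.51% against 0.0757% and 0.175%. At Gch1, in contrast, it was in the top 12.7% and 7.74% against 14.3% and 8.35%, so that the covered share was higher at 4% oxygen while the best rank overlapped. Among hypoxia response starts with a higher share, Vhl had 31.9% and 24.5% against 36.5% and 31.9%, a lower place at 4% oxygen in each set. The ranks of Arnt overlapped, with 34.2% and 19.4% against 36.7% and 10.6%. Lists of different length were ranked apart, and ranks describe position within a list only.

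Away from genes, H3K27ac regions found at 4% oxygen alone lay nearer to gene starts than those found at 20% alone. Of 65657 merged regions more than 2500 bp from the ends of any protein-coding or long noncoding gene record, 1820 (2.77%) had a peak in both 4% libraries and neither 20% library, 1145 (1.74%) the reverse, and 16617 a peak in all 4. With 1 library left out the class of that oxygen level asks for a peak in 1 library only, which tilts the balance by construction: 4%-only against 20%-only came to 3374 and 9996 without the 20% library of set 1, 3848 and 7120 without that of set 2, 15764 and 1761 without the 4% library of set 1, and 4452 and 3122 without that of set 2. The median distance to the nearest start was 47464 bp for 4%-only, 86896 bp for 20%-only and 60304 bp for all distal regions, and 62.6%, 54.2% and 59.6% lay inside a gene record. Median widths were 452, 443 and 407 bp, and 1739 bp for regions in all 4 libraries.

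The classes also carried other marks, from separate libraries, and some of these to different degrees. H3K4me3, a promoter mark, overlapped 16.8% and 16.3% of 4%-only regions at 20% oxygen and 16.6% and 19.2% at 4%, and 9.52%, 9.61%, 6.99% and 9.43% of 20%-only regions in the same order. Over all distal regions the shares were 20.4%, 20.7%, 18.6% and 22.8%, so that 4%-only regions lay somewhat below the general level and 20%-only regions well below it. H3K36me3, which marks transcribed bodies, overlapped 27.8% to 29.0% of 4%-only, 20.2% to 21.5% of 20%-only and 27.3% to 29.2% of all distal regions. For H3K27me3, the Polycomb mark, the shares were 0.989% to 2.36%, 0.699% to 1.83% and 0.813% to 2.07%, so both classes were near the general level. The enhancer mark H3K4me1 overlapped 75.1% and 55.8% of 4%-only regions at 20% oxygen and 65.8% and 53.1% at 4%. In the same order it overlapped 79.9%, 69.4%, 58.1% and 58.0% of 20%-only and 70.6%, 63.9%, 54.5% and 56.4% of all distal regions.

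In windows of 2000 bp centred on the distal regions, 5000 (7.62%) were higher by at least 10 points and 2538 (3.87%) lower. Over the windows that limma took, the median difference was 2.3 points. It turned to -6.1 points without the 4% library of set 2, and was 1.75 to 8.7 points without 1 of the others. Limma without a replicate block called 0 of 58030 windows, with 914 higher and 460 lower at an unadjusted p under 0.05. Its adjusted p was 0.953 for each region named next. With the block it called 59 higher and 29 lower, though the labels do not say that a replicate number marks a shared batch. Of the regions that were higher at 4% oxygen, the one with the largest gap lay at chr12:69399544-69402484, 23563 bp from Arf6, a small GTPase gene. Its window was covered to 9.2% and 0% at 20% oxygen and 89.9% and 100% at 4%.

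The second was at chr12:54286392-54288552, 82517 bp from the record of Egln3, on the upstream side. It was covered to 0% and 9.45% at 20% oxygen and 89.3% and 100% at 4%. H3K4me3 covered 0 and 163 bp of it at 20% oxygen and 408 and 1672 bp at 4%, and the whole 2161 bp lay inside H3K27me3 islands in all 4 libraries of that mark. Over the Egln3 record and 100000 bp on either side, peaks summed to 11675 and 16905 bp in the 20% libraries and 24488 and 27668 bp in the 4% libraries. In that sum both 4% libraries were above both 20% libraries.

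The next 3 were at chr6:12116611-12118210, 16454 bp from Phf14 (0% and 0% against 79.3% and 75.9%), chr15:84965580-84967144 in 5031439G07Rik (0% and 0% against 74.7% and 77.6%) and chr11:69752457-69752849 in Polr2a, the gene of the largest RNA polymerase II subunit (0% and 0% against 74.6% and 75.2%). The region near Phf14 carried H3K4me3 over 1556 to 1600 bp in all 4 libraries of that mark, while H3K27ac had no peak there at 20% oxygen. The Polr2a region is 393 bp wide, and its window also takes in neighbouring peaks.

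Of the 5 distal regions that were lower, 4 lay inside genes. Inside Ebf3, a transcription factor of neuronal development, chr7:137303254-137304974 was covered to 86.1% and 81.1% at 20% oxygen and 0% and 0% at 4%. Inside Fbxl7, chr15:26620511-26623154 was covered to 100% and 97% against 18.8% and 0%. Inside Ptprt, a receptor phosphatase gene, chr2:162075092-162076602 was covered to 74.8% and 84.6% against 0% and 0%. All 3 were nearly bare at 4% oxygen. Inside Nyap2, chr1:81105902-81107180 was covered to 83.3% and 72.1% against 0% and 5.4%. The last, chr15:56333874-56335773, was 329853 bp from Has2, the nearest gene, and was covered to 95% and 93.4% against 0% and 28.1%. H3K4me1, an enhancer mark, was found in every one of its libraries at these 5 regions. It covered from 87 bp, in the 4% library of set 1 at Ptprt, to 2569 bp, in the 20% library of set 1 at Fbxl7. At Ebf3 it covered 1721 bp in all 4. At Ebf3, Ptprt and Nyap2 the 4% libraries had H3K4me1 and no H3K27ac peak in the region, while at Fbxl7 698 and 261 bp and at Has2 0 and 561 bp of H3K27ac were still called.

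Regions of 1 oxygen level were also counted near the listed genes. Within 100000 bp of a hypoxia response gene there were 491 distal regions, of which 23 (4.68%, against 2.77% of all distal regions) were 4%-only and 7 (1.43%, against 1.74%) 20%-only. Such a 4%-only region lay near 16 of the 40 genes (40%, against 17.4% of all genes) and a 20%-only one near 6 (15%, against 7.43%), with a median of 10 distal regions a gene against 4 over all genes. The 4%-only share was higher still near housekeeping genes (12 of 217, 5.53%) and immune markers (6 of 51, 11.8%), so it was not particular to hypoxia response genes. Cited2, a feedback inhibitor of HIF, and Egln3 had 3 each, and Pdk1, Bnip3l and Mxi1 had 2 each. The regions near Pdk1, at chr2:71801866-71803118 and chr2:71803575-71804313, held 657 and 1253 bp and 263 and 663 bp of peaks at 4% oxygen. Near glycolysis genes 13 of 326 regions (3.99%) were 4%-only and 2 (0.614%) 20%-only, with 3 of them each at Hk2 and Slc2a1.

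Noradrenergic identity genes, whose starts did not separate, had the reverse balance when the regions in their surroundings were counted. Of 727 distal regions within 100000 bp, 30 (4.13%, against 1.74%) were 20%-only and 9 (1.24%, against 2.77%) 4%-only. A 20%-only region lay near 12 of 28 genes (42.9%, against 7.43%) and a 4%-only one near 6 (21.4%, against 17.4%). The median was 21.5 distal regions a gene, against 4 over all genes, so by gene both classes were above the general level. The cell cycle list also had more 20%-only than 4%-only regions, 6 and 4 of 168 (3.57% and 2.38%). Alk, the receptor kinase gene mutated in neuroblastoma, had 6 among 121, and Eya1, a developmental regulator without H3K27ac at its ends, had 5 among 19. Phox2a and Chgb had 3 each and 0 at 4% alone. At the widest of those near Phox2a, chr7:101767106-101767811, there were 676 and 675 bp of peaks in the 20% libraries and 0 bp in both 4% libraries. These counts were looked for after the lists had been compared at starts, no test was made, and with only peaks of score 5 or more they were 18 and 6. For the 17 marker genes of the line alone, 14 of 338 regions (4.14%) were 20%-only and 0 were 4%-only.

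H3K36me3, measured in separate libraries, leaned lower over the bodies of genes with lower H3K27ac starts. As for H3K27ac, its set 1 libraries came from different flow cells at 20% and 4% oxygen, so oxygen and flow cell cannot be told apart there. Reads were counted in 3677 islands that every library covered to at least 0.9, and edgeR's quasi-likelihood test called 0 of them after Benjamini-Hochberg adjustment (192 higher and 178 lower unadjusted; DESeq2 called 0, with 170 and 144). Of genes with lower H3K27ac starts, 84 had such an island, with a median log2 ratio of -0.13 (-0.11 in set 1 and -0.15 in set 2) against -0.015 over all 4091 genes with one. Of these, 13 (15.5%) were lower and 0 higher at an unadjusted p under 0.05, against 5.13% and 2.71% of all genes, and 51 (60.7%, against 38.1%) were lower in both sets. For 182 genes with higher starts the median was 0.04, and 6 (3.30%) were higher and 4 (2.20%) lower. In both sets, 76 of the 182 were higher (41.8%, against 28.5%) and 45 lower (24.7%, against 38.1%).

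Over hypoxia response genes the median log2 ratio of H3K36me3 was 0.33 in 12 genes with an island (0.39 in set 1 and 0.29 in set 2). At an unadjusted p under 0.05, 6 of the 12 were higher and 0 lower, against 2.71% and 5.13% of all genes with an island. Narf, one of the higher starts, had 0.40 (edgeR adjusted p = 0.450). Hk2, a higher start of the glycolysis list and not one of the 12 genes, had 0.49 (edgeR adjusted p = 0.365). P4ha2, a collagen prolyl hydroxylase gene, had 0.47 (edgeR adjusted p = 0.365), while H3K27ac covered its start to 100% and 100% at 20% oxygen and 100% and 92.95% at 4%. A share cannot pass 100%, so the P4ha2 start could not come out higher at 4% oxygen by this measure. The H3K4me3 share of the start window was alike in the classes, from 78.5% to 85.6% over the 4 libraries at higher starts, 81.5% to 87.7% at lower starts and 76.3% to 82.6% at all starts with a mean H3K27ac share of at least 5%.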

How the data were processed

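H3K27ac was profiled by ChIP-seq in 4 libraries, and H3K4me3, H3K4me1, H3K36me3 and H3K27me3 of the same design were used beside them. The submitters' processing notes name BWA, Picard, MACS2, SICER and mm10; versions are not given in the sources used here. The authors' deposited MACS2 lists give intervals with a −log10 score, whose lowest value in the H3K27ac lists was 2.03 to 2.09; whether it is of p or q was not settled, and it served only for ranks and a stricter threshold of 5. The SICER islands carry a whole-number count per island, per the deposited files, read as ChIP reads. Each file header names 1 library, so calls were made library by library, per the file headers. The interval list of each second library was placed by its title, and the names and scores of 100% of its peaks matched that library's summits.

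The computed value was the share of a window, 1000 bp on either side of a gene start, covered by peaks. Starts came from RefSeq (GRCm38.p6) for 17492 of 21887 genes, and of several the one with most H3K4me3 was taken. For 4395 genes without a listed start both ends of the record were used. The members and the 16 gene lists (345 entries, all matched, 2 by a synonym) were chosen with earlier results of these data known. Named genes were Nos1, the 10 starts per direction with the widest gap between groups, list members with a gap of at least 10 points (up to 10 per direction for hypoxia and glycolysis, 3 for others) and 5 distal regions per direction; the genes near regions of 1 oxygen level, and list members given for contrast, were chosen after their values were seen. Tests used limma 3.58.1, edgeR 4.0.16 and DESeq2 1.42.0 in R 4.3.3. Limma took windows with a mean share of at least 5% and left out those with the same share in all 4 libraries. On simulated data with the measured noise it recovered 0% of shifts of 40 or 20 points, at starts and at distal windows. With noise at 0.1 of that it recovered 100%. Its counts of 0 calls therefore cannot show that windows were alike. On simulated H3K36me3 counts edgeR recovered 100% of 2-fold and 85% of 1.5-fold changes, with 15 calls among unchanged regions.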

Additional observations from a re-analysis of the deposited data

How the results depend on the processing

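Equal numbers of peaks (60786 a library), a score of at least 5 and, chosen after seeing the data, the outermost start of a gene kept the counts of higher and lower starts within 1.5 times. Higher and lower starts numbered 324 and 49 with 2500 bp on either side, 246 and 79 with both ends of the gene record, and 170 and 51 with a gap of 20 points. Leaving out 1 library at a time, which loosens the rule, gave 1086 to 2228 higher and 498 to 1234 lower starts, 3374 to 15764 distal 4%-only and 1761 to 9996 distal 20%-only regions. Beyond 10000 bp from gene records 1179 regions were 4%-only. The difference in covered length, 3.54 Mb, ranged from 0.661 to 12.7 Mb and turned to -5.59 Mb without the 4% library of set 2. The hypoxia median was 8.79 points with equal peak numbers, 6.01 with the stricter score, 9.89 with 2500 bp, 3.87 with both ends and 6.55 with the outermost start, and 5.51 to 9.13 without 1 library. The glycolysis median was 10.8 with 2500 bp and 4.0 to 6.58 without 1 library; its higher members were 5 with equal peak numbers, 5 with the stricter score, 6 with 2500 bp and 5 to 7 without 1 library. Of 396 values of 44 named starts under these alternatives, 395 kept their direction and 1, Lin28b with both ends, did not (-11.6 points). Leaving out 1 library could not turn a direction, because the choice of these starts required both 4% libraries on 1 side. In size, 161 of the values moved by more than the mean SD within groups.

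The labels do not say that a replicate number marks a shared batch. Deviations of same-numbered libraries correlated at 0.347 over 10897 starts and 0.432 over 65657 distal windows, with 2 pairs only. With the replicate block limma called 0 starts and 59 distal windows higher and 29 lower. With it edgeR called 388 H3K36me3 regions higher and 354 lower, which put 12 genes with higher starts up and 8 down, and 1 gene with a lower start up and 24 down; without 1 library it called up to 15 and 11 regions. Without 1 library the H3K36me3 median was 0.014 to 0.049 at higher and -0.14 to -0.094 at lower starts, with 0 to 1 of these genes called, and with all regions and an offset for length 0.064 and -0.055. Depth limits all H3K27ac values, since read totals are unknown and a weak region may miss the peak threshold in a shallower library.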

Other observations

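Ribosomal protein genes, grouped by symbol after their values were seen, leaned to less H3K27ac at their starts at 4% oxygen. Of 81 genes named Rpl or Rps, 8 were lower by the 10-point rule (9.88%, against 1.17% of all starts and 2.35% of those with a mean share of at least 5%, as 77 of the 81 had) and 1 was higher, 49 were lower in both sets and 8 higher in both. Their median difference was -3.48 points, with -4.4 in set 1 and -2.1 in set 2, and they averaged 60.3% and 60.1% in the 20% libraries and 53.1% and 56.0% in the 4% libraries. The groups did not overlap in that mean. H3K36me3 over 16 of these genes had a median log2 ratio of 0.04 (0.11 in set 1 and -0.05 in set 2). Mitochondrial ribosomal protein genes (78) had 3 lower and 1 higher starts (3.85% and 1.28%, near or below the 2.35% and 6.05% of starts with a mean share of at least 5%, as 71 had), and genes named Rrp, Utp, Nop or Nol (37), many of which act in ribosome assembly, had 4 lower (10.8%) and 0 higher, with 34 at a mean share of at least 5%.

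Of 394 genes with Zfp symbols, also grouped afterwards, 22 were higher (5.58%) and 2 lower (0.508%), with 300 at a mean share of at least 5%, so the higher count was near the 6.05% of such starts. The median difference was 0 in set 1 and 0.925 in set 2.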
